A study of Mus musculus with 2 samples.

Results

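The aryl hydrocarbon receptor, Ahr, and 5 genes known as its transcriptional targets (Ahrr, Tiparp, Cyp1a1, Cyp1b1 and Nqo1) were followed in lung immune cells of mice. The 6 genes were taken by symbol from both count tables, out of 31053 genes, and their UMIs (unique molecular identifiers, each marking 1 captured transcript) were summed per cell class and library. Cells with the leukocyte surface protein CD45 had been sorted from perfused, collagenase-digested lungs, and 3′ ends of transcripts were counted by the 10x Genomics droplet method. The control library came from mice without exposure and was labelled Ccr2-/- (KO), CD45.1+. The exposed library was labelled Ccr2-/- (KO), CD45.3+, and came from mice that inhaled diesel exhaust particles in a whole-body chamber at 500 µg/m³, for 1 hour a day on 5 days a week over 2 weeks. Ccr2 encodes the chemokine receptor that releases monocytes from bone marrow, and the design text also names wild-type C57BL/6J mice. The labels do not say if a library pooled several animals. Each group held 1 library, so no test was possible. The effect of exposure and other differences between these 2 libraries cannot be told apart. Square brackets give exact 95% intervals that cover counting error only.

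The receptor is a basic helix-loop-helix PAS protein held in the cytoplasm by heat shock protein 90. Planar aromatic compounds, among them polycyclic aromatic hydrocarbons of diesel particles, bind it, and it then enters the nucleus, pairs with Arnt and binds the response element. Cyp1a1 and Cyp1b1 encode cytochromes P450 that oxidise such compounds, and Nqo1 encodes a quinone reductase that NRF2, the regulator of antioxidant genes, also induces. Ahrr encodes the receptor's repressor and Tiparp a mono-ADP-ribosyltransferase, and both restrain the receptor in feedback. In barrier tissues the receptor is known for its part in innate and intraepithelial lymphocytes and in dendritic cells.

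Promoter sequences of 5 of the 6 genes were found in RefSeq (build GRCm38.p6), from 250 bases before to 50 bases after the start site. They were searched on both strands for GCGTG, the core of the response element, which reads CACGC on the other strand. The sequences of the 3 genes that stand for the range of levels measured here, the abundant Tiparp, the rare Ahrr and the undetected Cyp1a1, are shown 5′ to 3′ with the core in capitals.
Tiparp: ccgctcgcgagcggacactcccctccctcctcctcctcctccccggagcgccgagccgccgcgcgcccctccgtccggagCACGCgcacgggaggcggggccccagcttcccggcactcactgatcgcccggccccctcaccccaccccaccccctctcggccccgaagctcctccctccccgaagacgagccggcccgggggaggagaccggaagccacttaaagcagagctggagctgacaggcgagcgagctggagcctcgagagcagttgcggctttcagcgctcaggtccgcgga
Ahrr: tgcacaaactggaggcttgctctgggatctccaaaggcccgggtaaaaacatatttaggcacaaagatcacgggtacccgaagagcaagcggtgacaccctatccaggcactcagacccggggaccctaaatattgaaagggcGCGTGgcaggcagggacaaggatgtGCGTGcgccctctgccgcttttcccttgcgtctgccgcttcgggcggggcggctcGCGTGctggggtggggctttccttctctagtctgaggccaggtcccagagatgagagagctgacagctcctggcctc
Cyp1a1: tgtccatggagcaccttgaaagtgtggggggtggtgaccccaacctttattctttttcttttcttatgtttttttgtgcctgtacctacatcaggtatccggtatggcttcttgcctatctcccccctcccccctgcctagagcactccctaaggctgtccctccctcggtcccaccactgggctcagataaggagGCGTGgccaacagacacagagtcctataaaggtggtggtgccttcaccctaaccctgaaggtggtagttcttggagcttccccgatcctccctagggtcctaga
The Tiparp window lies at chr3:65528197-65528496 on the plus strand, the Ahrr window at chr13:74292282-74292581 on the minus strand and the Cyp1a1 window at chr9:57697363-57697662 on the plus strand. Tiparp held 1 core, Ahrr 3 and Cyp1a1 1. The Cyp1b1 window held 1 core and the Nqo1 window none. Of 32851 promoters of this length, 32.4% held the core, so its presence is common. The longer form TNGCGTG, which contains the core, was found in the Ahrr window and in 5.07% of all promoters. The antioxidant element core TGACNNNGC was found in none of the 5 windows and in 12.4% of all promoters. These matches describe letters only. In the GENCODE annotation of mm10 all 6 genes are protein-coding, with Ahr at chr12:35497974-35535038, Ahrr at chr13:74211118-74292331, Cyp1b1 at chr17:79701537-79715061 and Nqo1 at chr8:107388225-107403206, each on the minus strand. Tiparp lies at chr3:65528410-65555518 and Cyp1a1 at chr9:57687928-57703824 on the plus strand. Ahr is overlapped on the other strand by Gm48236 and Tiparp by 4931440P22Rik, and the strand setting of the counting is not given in the sources used here.

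The tables held 10312 control and 10000 exposed barcodes with 62047730 and 67030914 UMIs, and 8940 and 8690 cells were kept. Each class below means cells like the type it is named for, since names came from marker genes, and levels are CPM (UMIs of the gene per 1000000 UMIs of the class). A pair of clusters was kept apart from the 12 named classes, which had 50 or more cells in both libraries. The first was led by Ctla4, Tnfrsf4 and Icos and also carried T cell markers. The second was led by Igha and Jchain with Sparc and Epas1, and its epithelial markers summed to 8344 CPM in control and 33.7 CPM in exposed cells. Ccr2, the gene named as knocked out, was at 585 CPM in control and 776 CPM in exposed classical monocytes, for which it is also a naming marker, and at 2.63 and 1.61 CPM in B cells, so transcripts counted as Ccr2 were present in both libraries labelled as knockout. Whether the counted 3′ end lies in the deleted part is not stated. Libraries shared 23 barcodes.

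Tiparp and Ahr, 2 of the 6 genes, were measured well and 4 were near or at zero. Over all barcodes Tiparp had 10062 control and 9407 exposed UMIs, and Ahr had 2151 and 2656. Nqo1 had 20 and 18 UMIs and Ahrr 9 and 9, each in a cell of its own. Cyp1a1 had 0 control UMIs and 1 exposed UMI, and Cyp1b1 had 0 in both libraries. A count of 0 allows up to 0.0483 CPM over the control barcodes and 0.0448 CPM over the exposed ones. Cyp1b1 was therefore not detectable in CD45+ cells at this depth, and a single UMI of Cyp1a1 gives no level.

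The 4 rare genes had fewer than 20 UMIs over both libraries in every class and were too low to judge, so 48 of the 72 pairs of gene and named class received no ratio. Among kept cells, the control Nqo1 UMIs included 5 in alveolar macrophages, 5 in neutrophils and 3 in nonclassical monocytes. The exposed library held 2, 6 and 2 Nqo1 UMIs in the same classes. B cells, taken as a background class, held no Nqo1 UMI in 1936 control and 1748 exposed cells, which allows shares of up to 0.155% and 0.172% of cells with a captured UMI, not of cells that express the gene. Ahrr UMIs lay in myeloid cells for the most part, with 4 in control interstitial macrophages and 3 in exposed classical monocytes, and 1 control B cell held 1. These counts set no order between classes.

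Ahr transcripts were most abundant in type 1 dendritic cells, the cross-presenting dendritic cells, in both libraries. The control level was 171 CPM [157 to 186] and the exposed level 183 CPM [169.7 to 198]. Classical monocytes, the bone marrow-derived inflammatory monocytes, came next with 106 CPM [94.9 to 117] and 92.0 CPM [85.3 to 99.2]. Among type 1 dendritic cells, 71.8% of the control cells and 71.9% of the exposed ones held an Ahr UMI, against 0.727% and 1.41% of neutrophils, which served as the background class. Median depth was 15534 and 16652 UMIs in these dendritic cells and 2675.5 and 2893 in neutrophils. With each cell thinned to 1000 UMIs the shares were 17.5% and 15.3% in the dendritic cells and 0.147% and 0.464% in neutrophils. In the thinned cells, too, Ahr was seen far more often in type 1 dendritic cells.

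Type 2 dendritic cells, which present antigen to CD4 T cells, held 52.5 CPM [43.3 to 63.1] and 58.2 CPM [47.2 to 71.0] of Ahr. The level in type 1 over type 2 dendritic cells was 3.26-fold [2.66 to 4.03] among control cells and 3.15-fold [2.54 to 3.94] among exposed cells. Nonclassical monocytes, which patrol vessels, held 39.9 and 58.2 CPM, and interstitial macrophages 47.1 and 39.2 CPM. Alveolar macrophages, the resident phagocytes of the airspace, stood far below with 7.27 CPM [5.57 to 9.32] and 3.08 CPM [2.03 to 4.48]. Control classical monocytes exceeded control alveolar macrophages 14.5-fold [11.1 to 19.4]. Neutrophils, the background class, were at 2.78 CPM in the control and 5.24 CPM in the exposed library, so the exposed alveolar macrophage level was not above background and gives no fold. In the control library, neighbours in the order of levels from the third class down to alveolar macrophages did not differ beyond their intervals. In the exposed library neighbours differed at 3 places, below type 1 dendritic cells, below group 2 innate lymphoid cells and below neutrophils.

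Among lymphocytes Ahr was uneven. T cells held 9.94 CPM [7.70 to 12.6] and 11.6 CPM [9.35 to 14.3], B cells 17.5 and 17.5 CPM, and NK cells 16.1 and 12.5 CPM. The Ctla4 and Icos cluster held 71.9 CPM [58.8 to 87.1] and 49.6 CPM [37.5 to 64.4], or 7.24-fold [5.28 to 9.99] and 4.26-fold [2.99 to 6.02] the level of T cells. Gamma-delta T cells, with 49 and 40 cells, held 57.6 and 63.5 CPM, and group 2 innate lymphoid cells 37.4 and 31.2 CPM. Within NK cells, a cluster of 43 control and 27 exposed cells led by Xcl1 held 81.6 and 50.7 CPM. The larger cluster, led by the granzyme gene Gzma, held 11.8 and 10.5 CPM. The smaller cluster was 6.89-fold [3.65 to 12.5] and 4.85-fold [1.93 to 10.8] above the larger one.

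Tiparp followed another order. Neutrophils held by far the highest level, with 596 CPM [579 to 614] in control and 485 CPM [470.4 to 501] in exposed cells. Nonclassical monocytes had 232 CPM [212 to 254] and 179.6 CPM [162 to 198]. In their cluster low in neutrophil transcripts, described below, Tiparp was at 155 and 119 CPM, not above classical monocytes. Interstitial macrophages had 198 CPM [181 to 217] and 101 CPM [86.3 to 118], and classical monocytes 166 CPM [153 to 181] and 134 CPM [126 to 143]. Group 2 innate lymphoid cells held 159 and 147 CPM and type 2 dendritic cells 117 and 136 CPM. In the exposed order the classes after neutrophils were nonclassical monocytes, group 2 innate lymphoid cells, type 2 dendritic cells and classical monocytes. Adjacent pairs of these did not differ beyond their intervals. The first and last did, with classical over nonclassical monocytes at 0.747-fold [0.664 to 0.842]. The lowest classes with 50 or more cells were T cells, at 28.2 and 27.2 CPM, and NK cells, at 37.5 and 20.8 CPM. In the thinned cells a Tiparp UMI was seen in 37.9% and 33.3% of neutrophils and in 3.05% and 2.34% of T cells. The classes with fewer than 50 cells had few counts, with 29 and 10 Tiparp UMIs in gamma-delta T cells, 16 and 6 in mature dendritic cells and 9 and 27 in plasmacytoid dendritic cells.

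**Figure D1:**
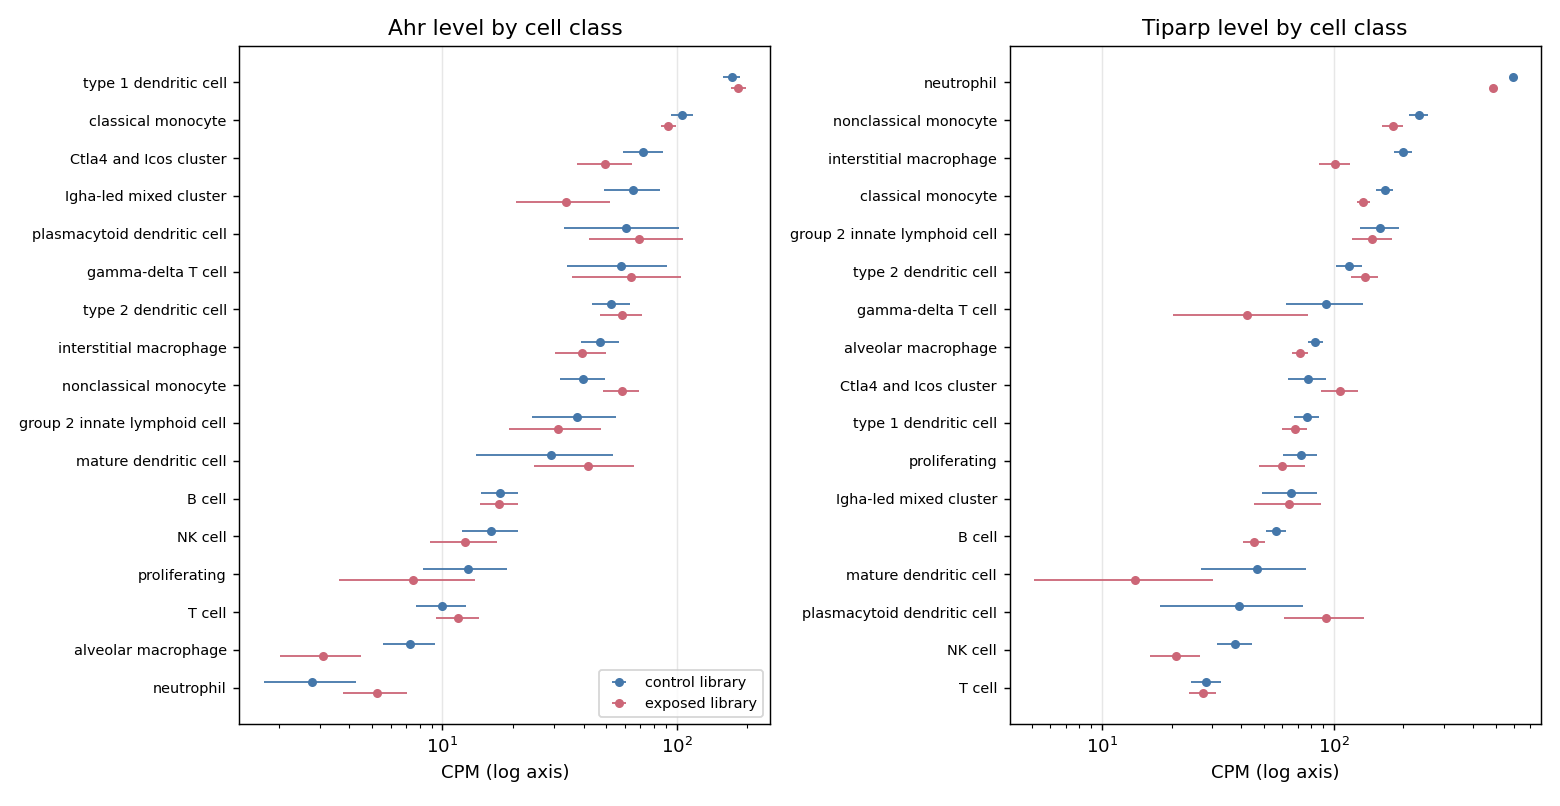
Levels of Ahr (left) and Tiparp (right) in CPM on log axes, for 17 cell classes in order of the control level. Points are the control (blue) and exposed (red) library and bars exact 95% counting intervals. Ahr is highest in type 1 dendritic cells, at 171 and 183 CPM, and Tiparp in neutrophils, at 596 and 485 CPM.

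The order of classes was much the same in both libraries. Over the 17 classes the log2(CPM + 1) level in the exposed library followed that in the control with r = 0.94 for Ahr and 0.85 for Tiparp, and these points share libraries and depth. Ahr and Tiparp did not follow each other, with r = 0.04 over 28 points of class and library. In exposed classical monocytes thinned to 1000 UMIs, a Tiparp UMI was present in 12.3% [5.08 to 23.7] of the 57 cells with an Ahr UMI and in 12.7% [9.97 to 15.8] of the 528 without. Among 10925 genes, the profile most like that of Ahr was Crip1 (r = 0.82), followed by Phf11b, Psmb8, Zc3h12c and Ece1. The profile most like that of Tiparp was Csrnp1 (r = 0.90), followed by Cass4, Lpcat2, Dennd5a and Ptgs2os2.

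Neutrophil clusters differed in Tiparp. The interferon-response cluster led by Ifit1 held 695 and 617 CPM, the cluster led by Retnlg 630 and 552 CPM, and the cluster led by Ptafr 557 and 428 CPM. The small cluster of granule genes led by Ngp, with 13 and 27 cells, held 214 and 123 CPM, or 0.357-fold [0.204 to 0.581] and 0.248-fold [0.164 to 0.359] of the other neutrophils. Of the 2 nonclassical monocyte clusters, 1 held high levels of S100a8 and S100a9, genes with abundant transcripts in neutrophils. Its S100a8 and S100a9 sum was 53336 and 54713 CPM, its Tiparp level 297 and 244 CPM, and the Tiparp that neutrophils would bring with that sum, if all of it were theirs, 214 and 164 CPM. The other cluster had 203 and 637 CPM of S100a8 and S100a9, and 155 and 119 CPM of Tiparp. In B, T and NK cells and in alveolar macrophages the neutrophil part estimated in this way was below 5 CPM in each cluster.

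**Figure D2:**
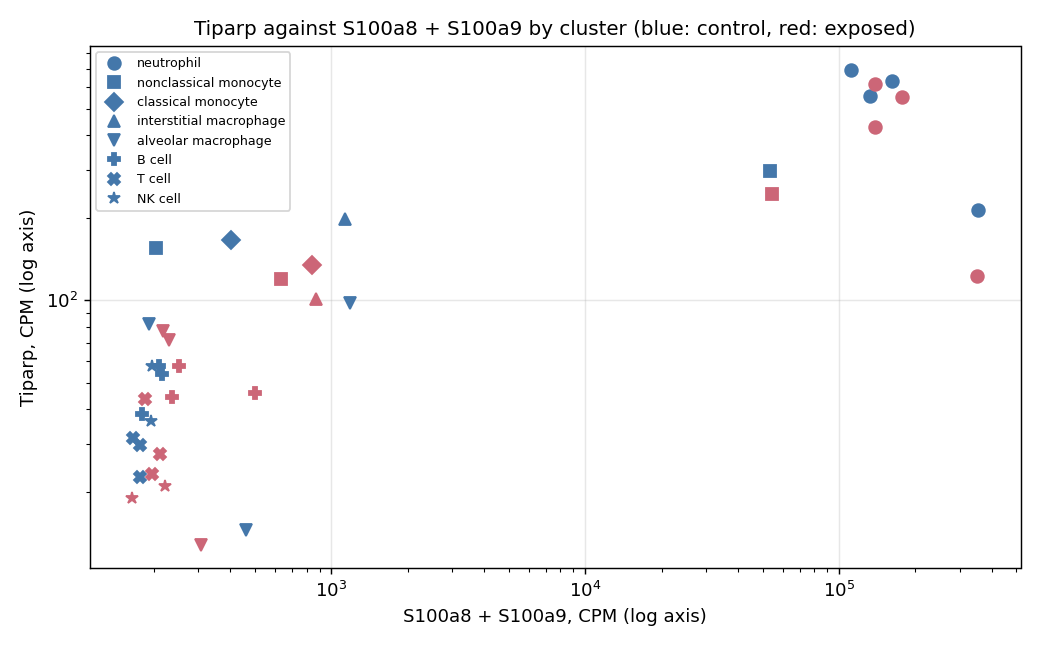
Tiparp level against the summed S100a8 and S100a9 level, both in CPM on log axes, for each cluster of 8 cell classes (marker shape) in the control (blue) and exposed (red) library. The 3 larger neutrophil clusters lie at the top, the Ngp-led cluster lies lower at 214 and 123 CPM, and 1 nonclassical monocyte cluster lies next to the neutrophils.

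Exposed and control libraries were then compared class by class. A gene was called where its summed count was at least 20 UMIs, the interval of the ratio excluded 1 and the ratio passed 1.5-fold. Of the 24 judged pairs of gene and named class, 3 were called lower and 1 higher in the exposed library. Over all genes of these classes 4.88% were called lower and 2.43% higher. All called pairs were of Ahr or Tiparp, the only members with enough counts.

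Tiparp was lower in the exposed library in 11 of 12 named classes, with the interval below 1 in 7 of them, while 57.5% of all genes lay below 1. Intervals narrow as counts rise, so the 7 reflect the high Tiparp counts too. The share of all genes with an interval below 1 was not counted, here or for the genes below. Among all genes of the class, the Tiparp ratio lay at percentile 2.04 in NK cells and 3.82 in interstitial macrophages. In the other named classes it lay between percentiles 16.8 and 82.1. Over all kept cells the Tiparp log2 ratio was -0.26 [-0.30 to -0.21], a value that also carries the class proportions of each library. The difference was largest in interstitial macrophages, where 489 control UMIs in 161 cells stood against 165 exposed UMIs in 125 cells, a log2 ratio of -0.97 [-1.24 to -0.71]. In that class 5.04% of genes were called lower. A single control cell held 50 of the 489 UMIs, and without the highest cell of each library the ratio was -0.87. With thinned cells the share with a Tiparp UMI was 21.2% [15.2 to 28.4] for control and 10.6% [5.75 to 17.4] for exposed cells, and these intervals overlap. Summed markers of neutrophils were at 2228 and 1367 CPM in these macrophages, and subtracting the neutrophil part of Tiparp left -0.98.

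NK cells were the other class with a call for Tiparp, with 128 control UMIs in 757 cells and 65 exposed UMIs in 656 cells, a log2 ratio of -0.84 [-1.30 to -0.41]. In NK cells 2.64% of genes were called lower. The ratio was -0.78 in the Gzma-led cluster alone. In neutrophils, with 4495 and 3890 UMIs, the ratio was -0.30 [-0.36 to -0.23], against a median of -0.10 over all genes of the class. Nonclassical monocytes were at -0.37 [-0.57 to -0.18], B cells at -0.31 [-0.54 to -0.10], classical monocytes at -0.31 [-0.46 to -0.16] and alveolar macrophages at -0.22 [-0.38 to -0.07]. These 5 ratios lay short of 1.5-fold. Type 2 dendritic cells were the 1 named class above 1, at 0.23 [-0.04 to 0.49]. Proliferating cells, at -0.26 [-0.68 to 0.14], joined 2 clusters of opposite sign. The larger held 103.6 and 58.8 CPM, -0.81 [-1.29 to -0.36], and the smaller 29.1 and 64.8 CPM, 1.16 [0.21 to 2.09], from 24 and 19 UMIs. The Ctla4 and Icos cluster was higher, 77.4 CPM against 106 CPM, a log2 ratio of 0.46 [0.07 to 0.84], and it was not called.

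Ahr showed no common direction. It was below 1 in 7 and above 1 in 5 of the 12 named classes, and the log2 ratio over all kept cells was 0.15 [0.06 to 0.24]. This pooled value also carries class proportions. Classical monocytes, second highest in Ahr, numbered 369 control and 585 exposed cells, with 348 and 682 Ahr UMIs. Their part in the pooled value was not tested. In type 1 dendritic cells, the class with the highest level, the log2 ratio was 0.10 [-0.07 to 0.26], and in classical monocytes -0.20 [-0.39 to -0.01]. A total of 270 of the exposed classical monocytes, but 10 of the control ones, held a UMI of the acute-phase genes Lrg1 or Saa3. In the exposed library Ahr was at 82.2 CPM in these cells and at 104 CPM in the others, a ratio of 0.790 [0.678 to 0.921], and without such cells in either library the exposed over control log2 ratio was -0.01 [-0.23 to 0.21]. Nonclassical monocytes were at 0.54 [0.14 to 0.96], and at 0.25 [-0.27 to 0.78] without the cluster high in S100a8 and S100a9.

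Ahr was called lower in alveolar macrophages, with 62 control and 27 exposed UMIs and a log2 ratio of -1.22 [-1.95 to -0.56], in a class where 4.08% of genes were called lower. A cluster of 39 control and 22 exposed cells led by Plet1, with a median of 26803 UMIs per cell, held 34 and 15 of these UMIs. The main, Lpl-led cluster held 3.87 and 1.49 CPM. These levels, and the 3.08 CPM of all exposed alveolar macrophages, are near or below those of the background class, so the call is not read as a change in expression. B cell transcripts differed in the same cells, with a sum of Igkc and Ighm of 878 CPM in control and 37.0 CPM in exposed alveolar macrophages, which would bring 1.15 and 0.052 CPM of Ahr if all of it came from B cells. The call was lost under 4 other ways of processing: the log2 ratio was -0.23 [-0.55 to 0.09] with doublets kept, -0.43 [-1.07 to 0.19] without a cell filter, -0.53 [-1.15 to 0.08] with direct marker gates, and 0.092 [-0.76 to 0.97] with each library clustered alone. In neutrophils Ahr was called higher, with 21 and 42 UMIs and a log2 ratio of 0.90 [0.12 to 1.74], in a class where 2.67% of genes were called higher. The ratio ran from 0.63 to 1.06 over 14 alternatives. Neutrophils were taken as the background class by choice, so their levels of 2.78 and 5.24 CPM are not read as expression. Whether they are background was not tested. In the Igha-led mixed cluster Ahr was at 65.1 and 33.7 CPM, -0.93 [-1.77 to -0.18], called lower like 12.1% of all genes there, beside the epithelial markers given above, whose part in this difference was not tested.

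Within T cells the Cd8 gate took cells with a Cd8a or Cd8b1 UMI and no Cd4 UMI. It held 20 Ahr UMIs in 505 control cells and 55 in 484 exposed cells. These were 6.17 and 15.5 CPM, a log2 ratio of 1.31 [0.57 to 2.15]. The control level of the Cd8 gate was not far above the 2.78 and 5.24 CPM of neutrophils, the background class. Its ratio is therefore not read as a change in expression. The Cd8b1-led cluster, which overlaps this gate, held 49 and 65 UMIs and was at 0.33 [-0.23 to 0.89]. The Cd4 gate held 7 and 16 Ahr UMIs, cells with a Foxp3 UMI none, and all T cells 67 and 89. T cells in no gate therefore went the other way, with fewer Ahr UMIs in the exposed library. Over all T cells the ratio was 0.23 [-0.24 to 0.71], and it ran from -0.45 with direct marker gates to 1.03 with a stricter cell filter. No common value for T cells can be given.

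**Figure D3:**
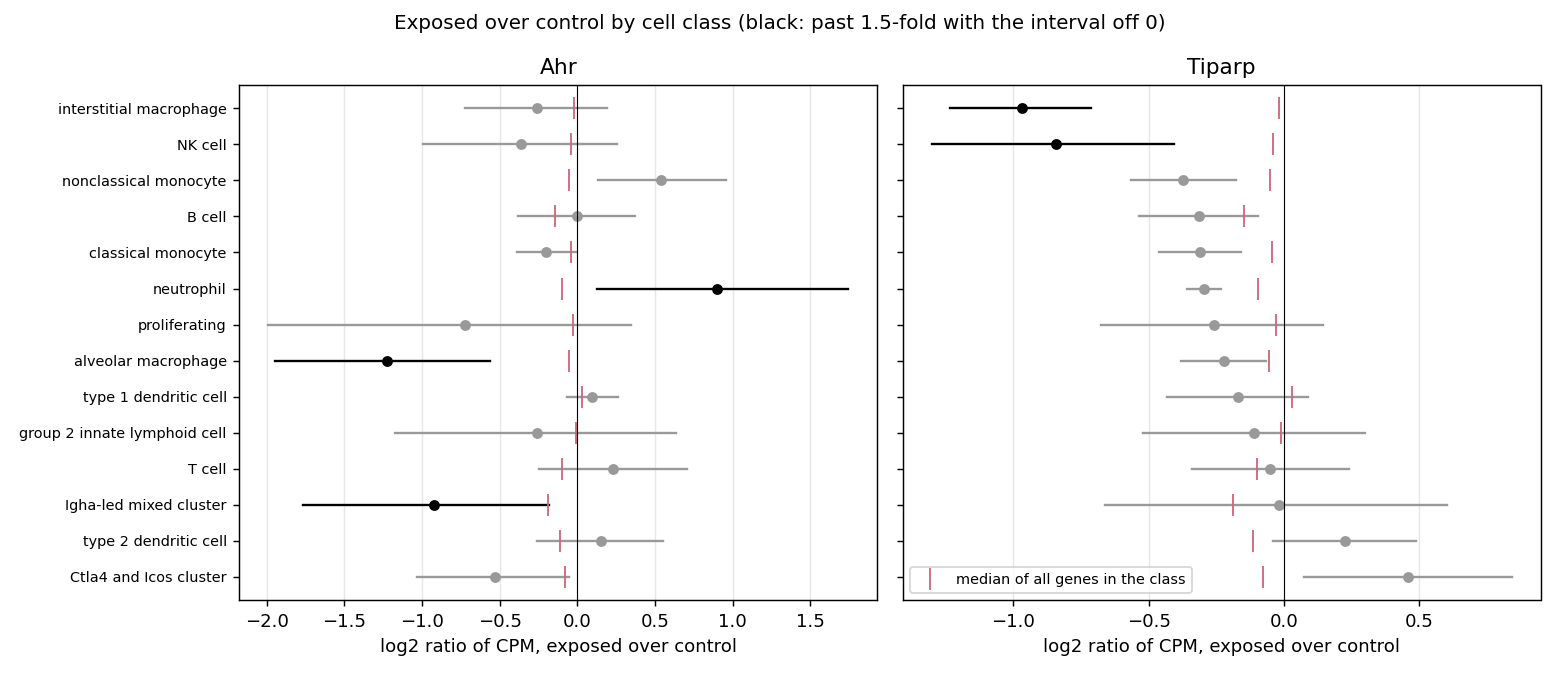
Log2 ratio of CPM, exposed over control, of Ahr (left) and Tiparp (right) in the 12 named classes and 2 further clusters, with 95% counting intervals. Black marks ratios past 1.5-fold with an interval that excludes 1, and red ticks the median of all genes of the class. Most Tiparp points lie left of 0, down to -0.97 in interstitial macrophages, while Ahr points lie on both sides.

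The genes that carry the receptor's signal were present in these cells. Over kept cells Arnt, its DNA-binding partner, was at 50.3 and 42.0 CPM, and Hsp90ab1, a form of heat shock protein 90, at 1231 and 1185 CPM. Arnt was below 1 in 9 of 12 named classes, while 57.5% of all genes lay below 1. Its interval was below 1 in 5 classes, among them neutrophils, at 72.9 and 54.5 CPM. The log2 ratio there was -0.42 [-0.60 to -0.24], against a median of -0.10 over all genes of the class. Of 97 judged pairs in the list of complex and partner genes, 3 were called lower (3.09%) and none higher, beside 4.88% and 2.43% of all genes. These were Rela in NK cells, at 96.3 and 58.0 CPM, Ncoa2 in type 2 dendritic cells and Src in interstitial macrophages. The list median lay below the median of all genes in 11 of 12 classes.

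Among bHLH-PAS genes 1 of 71 judged pairs was called lower (1.41%) and none higher, beside 4.88% and 2.43% of all genes. This list also holds Arnt, whose 12 pairs were counted in the list above too. The call was the clock gene Arntl in alveolar macrophages, at 16.2 and 9.01 CPM and -0.84 [-1.26 to -0.43]. Per1, a clock gene that also responds to stress hormones, was below 1 in 12 of 12 classes, beside 57.5% of all genes. Its interval was below 1 in 9, with no call. Its ratios ran from -0.58 to -0.075, and its level over kept cells was 179.6 and 127 CPM.

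Most other enzyme genes of the receptor's detoxification battery were sparse too. Kept cells held no UMI of Cyp1a2, Gsta1 or Gsta2 in either library, and Aldh3a1 had 0 and 1. Of 22 judged pairs in this list, 12 were of Nfe2l2, which encodes the transcription factor NRF2 and was not called in any class. The enzyme genes gave 3 pairs of Cyp2s1, 3 of Ugt1a6a and 4 of Ugt1a7c, and 1 of these was called lower, Ugt1a6a in alveolar macrophages with 19 and 8 UMIs. That was 4.55% of the 22 pairs, beside 4.88% of all genes.

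In the list of immune genes known as targets or dependents of the receptor, 11 of 59 judged pairs were called lower (18.6%) and none higher. The shares of all genes were 4.88% and 2.43%. The list was chosen with earlier results of these data known, and several of its calls rest on few cells. Serpinb2, a protease inhibitor gene, had 669 control and 2 exposed UMIs in interstitial macrophages, and all 669 were in 6 cells. Without cells holding a Serpinb2 UMI, the Tiparp ratio in that class was -0.95 [-1.22 to -0.70]. Prdm1, a repressor of lymphocyte and myeloid differentiation genes, was at 30.5 and 19.0 CPM in neutrophils, -0.68 [-0.99 to -0.38]. Socs2, a cytokine signalling inhibitor, was at 21.7 and 11.2 CPM in NK cells, -0.94 [-1.57 to -0.35]. Irf4 was called lower in alveolar macrophages and in type 1 dendritic cells, at -1.09 [-1.88 to -0.36] in the latter. Il10 in B cells had 25 and 2 UMIs, and 1 control cell held 40.0% of the 25.

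NRF2 genes, which share Nqo1 with the receptor's battery, had 144 judged pairs, among them the 12 pairs of Nfe2l2 already counted in the detoxification list. Of these 4.17% were called higher and 5.56% lower, beside 2.43% and 4.88% of all genes. Hmox1, a haem oxygenase gene, was called higher in nonclassical monocytes, at 84.6 and 191 CPM, 1.17 [0.92 to 1.44], and in interstitial macrophages, at 1.05 [0.86 to 1.23]. In interstitial macrophages 1 exposed cell held 54.1% of the exposed Hmox1 UMIs, and in nonclassical monocytes 1 held 26.9%. Gclm, a subunit of glutathione synthesis, was called higher in classical monocytes, at 10.6 and 20.5 CPM, 0.93 [0.41 to 1.52]. The list median there was 0.32 against -0.04 for all genes, the highest of the 12 classes. The lowest was -0.30, in group 2 innate lymphoid cells, and the list median lay below that of all genes in 5 of 12 classes. Srxn1, a peroxiredoxin repair enzyme, was called lower in neutrophils, at 58.4 and 31.6 CPM, and in alveolar macrophages, at 42.1 and 25.2 CPM. The cystine transporter gene Slc7a11 was called lower in alveolar macrophages, at 110.3 and 56.8 CPM, -0.96 [-1.12 to -0.80].

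Of 104 judged pairs of other mono-ADP-ribosyltransferase genes, relatives of Tiparp, 5 were called lower (4.81%) and 1 higher (0.962%). The shares of all genes were 4.88% and 2.43%. The list median lay below that of all genes in 7 of 12 classes. The call upward was Parp14 in neutrophils, an interferon-induced gene, at 21.5 and 32.7 CPM and 0.60 [0.32 to 0.90]. Immediate early and dissociation genes, which digestion of tissue induces, had 18 of 215 judged pairs called higher (8.37%) and 5 lower (2.33%). The shares of all genes were 2.43% and 4.88%. The list median lay below that of all genes in 3 of 12 classes. The members went both ways. Dusp1, a phosphatase gene, was below 1 in 12 of 12 classes with the interval below 1 in 11. Nr4a1 was below 1 in 11 with the interval below 1 in 10, and Zfp36 in 10 with 9. Of all genes 57.5% lay below 1. The heat shock genes Hspa1a and Hspa1b had the interval above 1 in 9 and 10 classes. They were called higher in 6 and 5 classes and so supplied most of the 18 calls upward. In interstitial macrophages the list median was 0.08 beside the Tiparp ratio of -0.97, and over the 12 classes the list medians and the Tiparp ratios had r = 0.02. These points share libraries, and the part of digestion in the Tiparp difference was not tested.

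**Figure D4:**
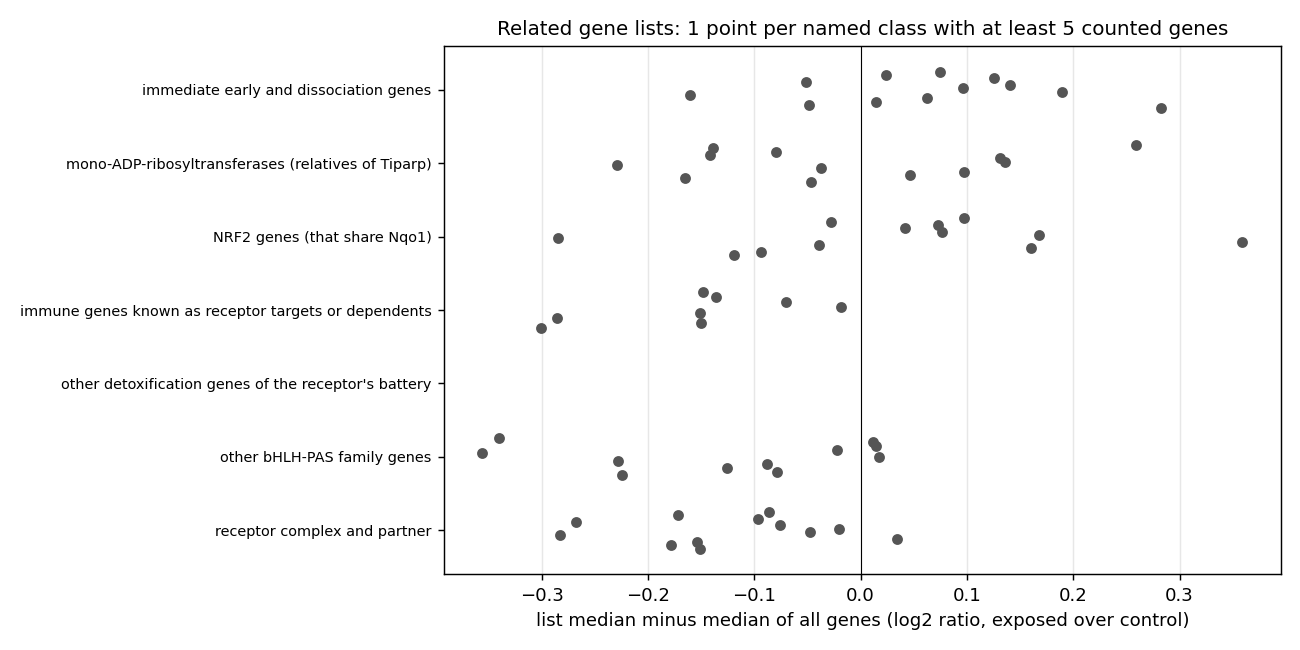
Median log2 ratio, exposed over control, of each related gene list minus the median of all genes of the class, 1 point per named class with at least 5 judged genes. Receptor complex medians lie below 0 in 11 of 12 classes, and the detoxification list has no point because too few of its genes were counted.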

How the data were processed

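Raw UMI counts per gene and barcode had been made by the authors with Cell Ranger (3.1.3 per the submitters' processing notes, 3.1.0 per the file headers) against mm10, and the deposited tables held called cells, with at least 500 UMIs. Barcodes with at least 500 UMIs, 200 genes and at most 10% mitochondrial UMIs were kept, which left out 621 control and 604 exposed barcodes by the last limit. Predicted doublets (751 and 706) were scored against simulated ones and removed. Cells were clustered without batch correction (2000 variable genes, 30 components, 20 neighbours, leidenalg 0.10.2 at resolution 1) with the 6 genes left out of the variable genes. Naming took 3 or more class markers in a cluster's 50 leading genes, with no other class ahead in the first 10. The Igha-led cluster met that rule as plasma cells but held markers of other tissues, and was set apart after its values were seen, so the counts over 12 classes leave out its call.

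UMIs were summed per class and library. CPM carried exact Poisson, shares exact Clopper-Pearson and ratios exact conditional binomial 95% intervals, with 0.5 counts added for log2 ratios. These cover counting error only, and no p-value was made. The calculation of ratios was checked on simulated counts with known folds, which checks the code and not these values. All 6 members were described in each class. In each list the 2 genes with the largest count and the 2 with the interval bound farthest from 0 could be named, and per member the 5 genes of most similar profile. The members and lists were chosen with earlier results of these data known. Python 3.11.15, numpy 2.4.6 and scipy 1.17.1 were used. Alternatives covered cell filters, doublets, clustering, gates, scaling, counts added, thinning and call limits.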

Additional observations from a re-analysis of the deposited data

Results flagged for a closer look

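Both genes with enough counts had classes whose counting intervals lay on opposite sides of a ratio of 1. For Ahr the log2 ratio of exposed over control was 0.90 in neutrophils and -1.22 in alveolar macrophages. The neutrophil levels are those of the background class, and the alveolar macrophage value was 0.092 with each library clustered alone, so neither is read as a change in expression. For Tiparp it was 0.46 in the Ctla4 and Icos cluster and -0.97 in interstitial macrophages. With 1 library per group these differences between classes were not tested.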

How the results depend on the processing

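With 1 library per group, no replicate could be left out. No paired analysis was possible because each group held 1 library. Over the alternatives, 179 of 185 Ahr and 196 of 198 Tiparp ratios stayed inside the counting interval of the reported value. Alternatives that changed only the call limits (minimum summed count and fold) left each ratio as reported. Those comparisons could not move, so these counts overstate how stable the ratios are. With a minimum of 50 counts, 70 of 76 list medians stayed within 0.1. All 68 shares fell outside their interval when cells were thinned to 1000 UMIs, since thinning lowers detection. The Ahr ratio in alveolar macrophages turned to 0.092 with each library clustered alone. The cause was not tested. The Tiparp call in interstitial macrophages ranged from -1.21 to -0.81 and that in NK cells from -0.86 to -0.66, while the Ahr ratio in T cells ran from -0.45 to 1.03.

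Counts of named classes that differed from those reported were as follows. Ahr was called higher in 2 classes with the stricter cell filter, with each library clustered alone and with scaling by the median ratio, and in 0 at 2-fold. It was called lower in 0 with doublets kept. The count stayed at 1 with no cell filter and with each library clustered alone, but there the class was proliferating cells, and with direct marker gates NK cells, in place of alveolar macrophages. The Ahr interval was above 1 in 4 classes with the stricter filter and in 1 with no cell filter, at resolution 0.6 and with direct marker gates. It was below 1 in 1 class with no cell filter, doublets kept, scaling by the median ratio and without the highest cell. Tiparp was called lower in 0 classes at 2-fold. Its interval was above 1 in 1 class with no cell filter, each library clustered alone, direct marker gates and scaling by the median ratio. With no cell filter, resolution 0.6 and direct gates 11 of the 12 classes could be compared. Alternatives that left out the Plet1-led, Xcl1-led or Hspa1b-led cluster, cells with Lrg1, Saa3 or Serpinb2 UMIs, the nonclassical cluster with neutrophil transcripts, or the neutrophil part of Tiparp were chosen after seeing the data.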

Other observations

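Il22, a cytokine gene on the list of receptor targets, had 281 control and 3 exposed UMIs over all barcodes. Of the 281, a single control barcode held 256, and that barcode was removed by the filters. Kept cells held 22 control UMIs in 7 cells and 3 exposed UMIs in 2 cells.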
